A study of Mus musculus with 6 samples.

Results

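The metallothionein and zinc response genes Mt1, Mt2, Mtf1 and Slc30a1 were followed across 11 clusters of mouse haematopoietic stem cells (HSCs). These 4 genes were chosen by name, with results of the same data known, from the 17068 genes listed in each table, and all 4 were present. The cells were bone marrow HSCs, sorted and droplet-sequenced, of mice with the Gfp-Lc3 genotype, whose autophagosome protein LC3 carries a green fluorescent tag. Old and young mice were each fasted for 24 hours and refed for 24 hours, or fasted for 24 hours, or fed ad libitum, with 1 mouse and 1 library for each of these 6 groups. All 6 mice carried it. The values came from the authors' deposited tables, which set each cluster, numbered 0 to 10, against all other cells. Cells of the 6 libraries were pooled in these tables, so differences by age or feeding were not analysed here, and no value carries an error between animals.

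Metallothioneins are small cysteine-rich proteins that bind zinc and copper and buffer free zinc in the cell. When zinc rises, the zinc-finger transcription factor MTF1, product of Mtf1, binds metal response elements in the promoters of the metallothionein genes and of Slc30a1, which encodes the zinc exporter ZnT1 of the plasma membrane. Glucocorticoids and oxidative stress are also known inducers of Mt1 and Mt2 in the mouse.

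On the mm10 build Mt2 (chromosome 8, 94172664 to 94173568) and Mt1 (chromosome 8, 94179082 to 94180327) are neighbours on the plus strand with 5513 bases between them, and each has 3 exons in GENCODE M21. Mt3 (94152607 to 94154146) and Mt4 (94137197 to 94139031) lie upstream of both, so that the 4 genes fit in 43.1 kb. Mtf1 is on chromosome 4 (124802104 to 124849800) and Slc30a1 on chromosome 1 (191906767 to 191913247). Mt1 and Mt2 can be told apart by their reads: of 1273 words of 31 bases in annotated Mt1 transcripts none occurred in Mt2 or any other gene, and of 573 in Mt2 only 3 were shared, with Pip5k1a.

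The 250 bases before the annotated start are shown for the 3 members that MTF1 is known to bind, since Mt1 and Mt2 varied together across clusters and Slc30a1 is the other known target. The sequences are RefSeq's on GRCm38.p6, plus strand. The RefSeq starts used here were 94179089 for Mt1, 94172618 for Mt2 and 191906781 for Slc30a1, which differ from the gene starts given above. Capitals mark matches to the core of the metal response element, searched as TGCACNC and TGCGCNC on both strands.
Mt1, chr8:94178839-94179088: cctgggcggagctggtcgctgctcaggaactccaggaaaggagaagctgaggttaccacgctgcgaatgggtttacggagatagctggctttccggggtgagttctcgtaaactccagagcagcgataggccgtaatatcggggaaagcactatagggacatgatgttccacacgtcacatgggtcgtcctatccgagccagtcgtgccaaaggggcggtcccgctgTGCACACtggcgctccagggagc
Mt2, chr8:94172368-94172617: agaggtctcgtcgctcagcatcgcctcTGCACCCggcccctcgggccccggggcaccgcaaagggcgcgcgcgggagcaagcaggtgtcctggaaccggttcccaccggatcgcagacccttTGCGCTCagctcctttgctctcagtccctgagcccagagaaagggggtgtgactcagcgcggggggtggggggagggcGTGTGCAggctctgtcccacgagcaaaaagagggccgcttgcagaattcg
Slc30a1, chr1:191906531-191906780: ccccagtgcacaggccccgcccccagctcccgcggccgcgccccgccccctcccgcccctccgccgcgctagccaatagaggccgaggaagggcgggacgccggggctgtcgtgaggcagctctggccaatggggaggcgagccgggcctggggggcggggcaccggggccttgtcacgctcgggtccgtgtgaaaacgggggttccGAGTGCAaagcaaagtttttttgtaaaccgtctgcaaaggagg
In the full 300-base window (250 bases before the start and 50 after), Mt1 held 3 matches, with TGCACTC at position 3 and TGCGCTC at position 21 downstream, counting the start as 1. Mt2 held 4 matches, Slc30a1 held 2, and Mt3 held 1. Over all 32851 promoter windows of that length, 25.7% held at least 1 match, 7.11% at least 2, 1.97% at least 3 and 0.517% at least 4. The Mtf1 window held 0. A match describes the letters only.

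Each table gives a gene's mean level over all cells and the log2 fold change of the cluster against the other cells. From these and the cluster sizes, the level in each cluster was worked out in counts per 10000 counts of a cell. The fold was taken as a ratio of mean counts, so the levels, and the ratios and shares drawn from them, are approximations. The sizes, read from the deposited p-values, were 4904, 3955, 3910, 3802, 3747 and 1188 cells for clusters 0 to 5, then 310, 267, 173, 112 and 10 cells for clusters 6 to 10, together 22378. Estimated depth was 9579 to 15555 counts per cell in clusters 0 to 9. In cluster 10 it came to 49249 from 10 cells, far above the others. The counts given for cluster 10 may therefore be too high and its intervals too narrow. Brackets hold the exact 95% Poisson interval of the estimated counts behind a level, which covers counting error only and not the spread between cells or mice. All 10 long-term HSC markers, among them Procr, Mecom and Hlf, had counts in every cluster, with a summed level of 13.1 to 21.8. Markers of other cells varied over all cells: C1qa of macrophages was at 0.0127, Cd79a of B cells at 0.00293 and the endothelial cadherin gene Cdh5 at 0.00157. Other listed markers had higher levels, with the carbonic anhydrase gene Car2 of the erythroid list at 7.27, the globin gene Hbb-bs at 1.31, Cldn5 of the endothelial list at 0.861, Pf4 of megakaryocytes at 0.458 and Cd79b of B cells at 0.368.

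Mt1 and Mt2 were highest in cluster 3 and lowest in clusters 2 and 8. Mt1 had a mean level of 1.41 over all cells. Its level was 2.08 (2.04 to 2.12) in cluster 3, against 1.27 in the other cells. In cluster 2 it was 0.831 (0.805 to 0.857), against 1.53 in the other cells, and in cluster 8 it was 0.814 (0.698 to 0.945), against 1.41 in the other cells. Clusters 2 and 8 overlapped in their counting intervals, and cluster 3 lay above every other cluster's interval.

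The rest of the clusters lay between these for Mt1. Clusters 9 and 10 had levels of 1.67 (1.48 to 1.89) and 1.62 (1.29 to 2.02), and cluster 0 had 1.53 (1.50 to 1.56). These 3 intervals overlapped one another. Clusters 5 and 4 had levels of 1.42 (1.36 to 1.48) and 1.41 (1.38 to 1.45), with intervals that overlapped each other and lay below that of cluster 0. Below them stood cluster 1 at 1.33 (1.29 to 1.37), cluster 6 at 1.20 (1.08 to 1.33) and cluster 7 at 0.981 (0.864 to 1.11). Cluster 6 overlapped both of its neighbours here, cluster 1 lay below cluster 4, and cluster 7 lay above cluster 2.

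Mt2, with a mean level of 0.312 over all cells, had the same clusters at the ends of its order. Its level was 0.515 (0.496 to 0.536) in cluster 3, against 0.270 in the other cells, and 0.166 (0.154 to 0.178) in cluster 2, against 0.343 in the other cells. Cluster 8 had 0.183 (0.130 to 0.2496), against 0.313 in the other cells, and overlapped cluster 2. In cluster 10 Mt2 was at 0.379 (0.232 to 0.602) on about 19 counts in 10 cells, an interval wide enough to hold the level of cluster 3. Clusters 0, 9 and 4 had levels of 0.347, 0.342 and 0.322, and clusters 5, 1 and 7 had 0.256, 0.256 and 0.247. Cluster 6 was at 0.207 (0.159 to 0.266). Only between cluster 4 and cluster 5 did neighbours in the order of Mt2 have intervals that were apart.

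**Figure D1:**
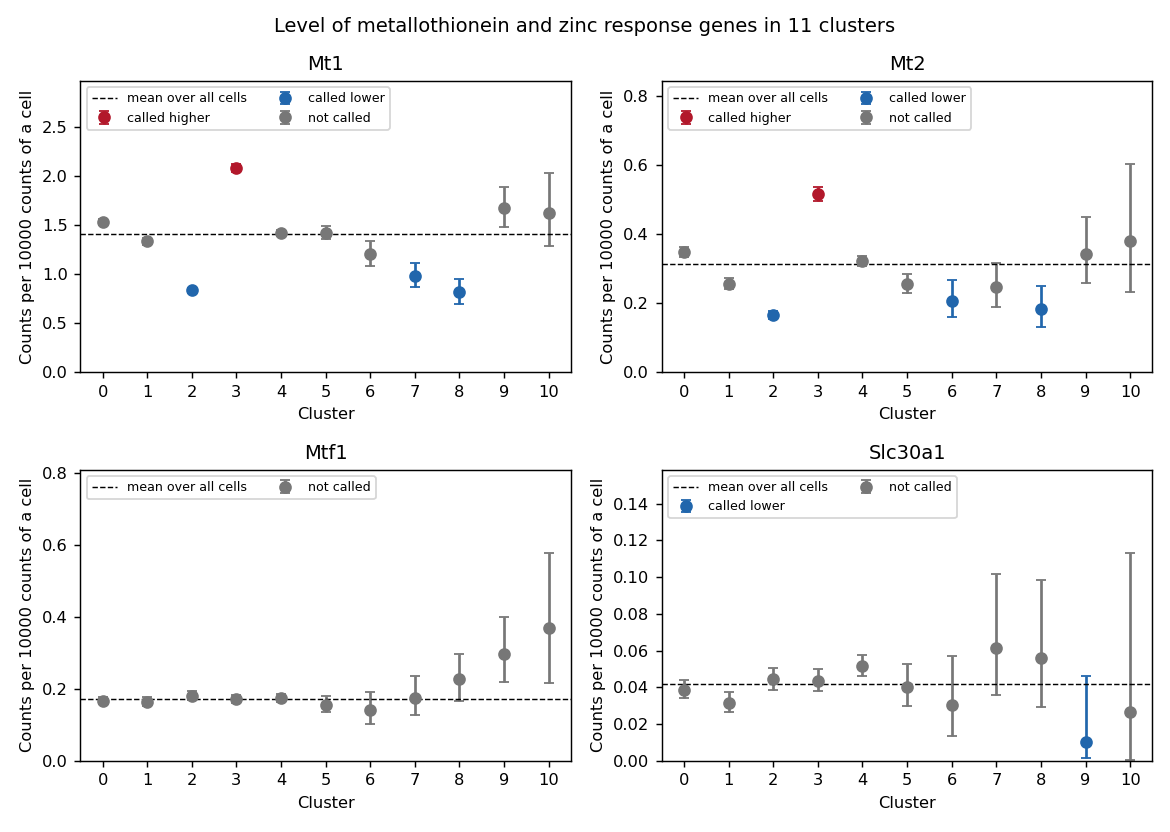
Level of Mt1, Mt2, Mtf1 and Slc30a1 (y axis, counts per 10000 counts of a cell) in clusters 0 to 10 (x axis), with exact 95% Poisson intervals of the estimated counts as bars and the mean over all cells as a dashed line; red marks called higher and blue called lower. Mt1 and Mt2 stand at 2.08 and 0.515 in cluster 3 and at 0.831 and 0.166 in cluster 2, while Mtf1 stays between 0.156 and 0.180 in clusters 0 to 5.

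Between the extremes of the 5 large clusters, the level in cluster 3 was 2.499 times that in cluster 2 for Mt1 and 3.11 times for Mt2. Cluster 3 held 17.0% of the cells and accounted for 24.8% of the Mt1 and 27.9% of the Mt2 summed over clusters. Cluster 2 held 17.5% of the cells and accounted for 10.2% of the Mt1 and 9.21% of the Mt2. Mtf1 and Slc30a1 had shares close to those of the cells, with 17.1% and 17.8% of their sums in cluster 3 and 18.4% and 18.6% in cluster 2.

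A gene counted as called higher or lower with a deposited log2 fold of 0.5 or more in size and an adjusted p, also deposited, under 0.05. The members were chosen with these contrasts known and the p is over cells, so the calls are a description. In cluster 3 both metallothionein genes were called higher and neither Mtf1 nor Slc30a1 was called, where 0.703% of all genes were called higher. The log2 folds there were 0.71 for Mt1 and 0.93 for Mt2 in the authors' deposited table, which listed them in places 6 and 10. In cluster 2 the same pair was called lower, at -0.88 for Mt1 and -1.05 for Mt2 in the authors' deposited table, where 3.49% of genes were called lower. Counted from the end of that list, Mt1 stood in place 22 and Mt2 in place 60.

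Calls in the small clusters stood against a much larger background. In cluster 8 both genes were called lower, at -0.79 for Mt1 and -0.78 for Mt2 in the authors' deposited table, and 19.5% of genes were called lower. Among genes at or above the median level that share was 3.8%. Of the pair, Mt1 alone was called lower in cluster 7, at -0.52 in the authors' deposited table, where 24.3% of genes were called lower. Mt2 alone was called lower in cluster 6, at -0.60 in the authors' deposited table, where 26.2% of genes were called lower. In the authors' deposited tables the median fold of all genes was -0.17 in cluster 7 and -0.32 in cluster 6. With those medians taken off the folds of the authors' deposited tables, Mt1 in cluster 7 was at -0.36 and Mt2 in cluster 6 at -0.28, and neither was past the threshold.

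Neither Mt1 nor Mt2 was called in clusters 0, 1, 4, 5, 9 and 10. Their log2 folds in the authors' deposited tables ran between -0.34 (Mt2 in cluster 1) and 0.28 (Mt2 in cluster 10). Genes called higher made up 2.4%, 0.123%, 0.387%, 0.135%, 1.2% and 1.79% of all genes in those clusters, in that order. Genes called lower made up 6.62%, 2.4%, 1.35%, 4.87% and 27.6% in clusters 0, 1, 4, 5 and 10. Of the 4 members, only Slc30a1 was called in these clusters, lower in cluster 9, where 19.9% of genes were called lower. Over the 44 pairs of a member and a cluster, 2 were called higher and 7 lower, and with Mtf1 no pair was called. No member was called lower in cluster 3, where 1.9% of genes were, or higher in clusters 2, 6, 7 and 8, where 3.02%, 0.0469%, 1.84% and 2.37% were.

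Mt1 and Mt2 varied together. Their folds had the same sign in 10 of 11 clusters in the authors' deposited tables, the exception being cluster 5, where Mt1 was at 0.01 and Mt2 at -0.30. Across clusters 0 to 9 the Pearson correlation of their folds was 0.94, as a description over 10 clusters that share libraries and whose other cells overlap. Against Mt1 the correlation over the same 10 clusters was -0.03 for Mtf1 and -0.39 for Slc30a1.

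The balance between the pair varied over a narrower range. Mt2 made up 19.9% of the estimated Mt1 and Mt2 counts in cluster 3 (95% Wilson interval 19.2 to 20.6, counting error only). It made up 18.5% in clusters 0 and 4, 16.6% (15.6 to 17.7) in cluster 2, 16.1% (15.3 to 17.1) in cluster 1 and 15.3% (13.8 to 16.8) in cluster 5. The intervals of cluster 3 lay apart from those of clusters 0, 1, 2 and 5 and touched that of cluster 4 (17.8 to 19.3). In clusters 6 to 10 the share was 14.7% to 20.1%, with intervals that overlapped one another.

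**Figure D2:**
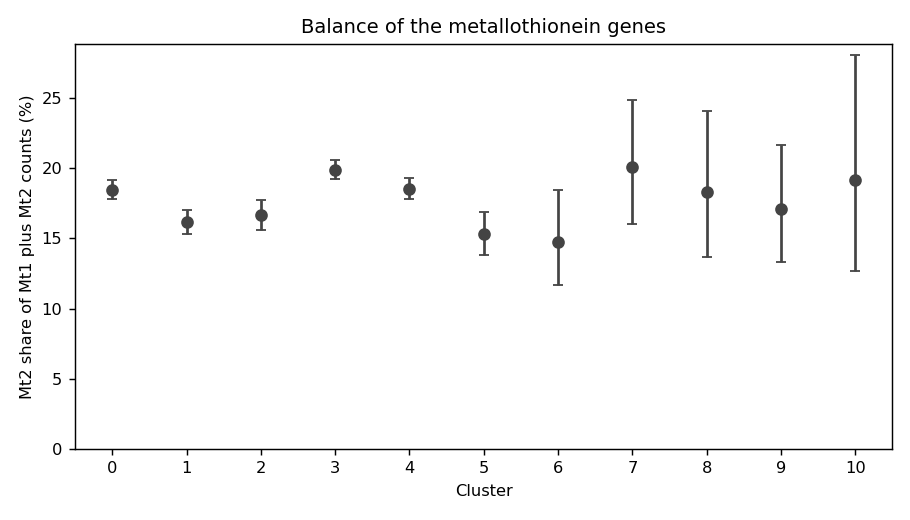
Share of Mt2 in the estimated counts of Mt1 plus Mt2 (y axis, percent) in clusters 0 to 10 (x axis), with 95% Wilson intervals as bars. The share is 19.9% in cluster 3, 16.6% in cluster 2 and 15.3% in cluster 5.

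Mtf1, the metal-sensing transcription factor gene, was flat across the large clusters. Its level was 0.167, 0.163, 0.180, 0.172, 0.174 and 0.156 in clusters 0 to 5, and the intervals of neighbours in this order of level overlapped. In cluster 3, where the metallothioneins were highest, it was at 0.172 (0.161 to 0.184), against 0.171 in the other cells, and in cluster 2 it was at 0.180 (0.169 to 0.193), against 0.169 in the other cells. The largest Mtf1 fold in clusters 0 to 5 was 0.14 in size in the authors' deposited tables. Clusters 6, 7 and 8 had levels of 0.141, 0.175 and 0.226. The highest levels were 0.297 (0.220 to 0.399) in cluster 9 and 0.369 (0.217 to 0.578) in cluster 10, on about 47 and 18 counts. Their folds of 0.80 and 1.11 in the authors' deposited tables did not pass the adjusted p.

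Slc30a1, the zinc exporter gene, was rare, with a mean level of 0.0416 over all cells. It was highest among the large clusters in cluster 4 at 0.0517 (0.0460 to 0.0578), against 0.0396 in the other cells, and lowest in cluster 1 at 0.0316 (0.0265 to 0.0376), against 0.0438 in the other cells. Clusters 2 and 3 had 0.0443 and 0.0437, with overlapping intervals, although the metallothioneins were at opposite ends there. Clusters 0 and 5 were at 0.0386 and 0.0401. In the authors' deposited tables its folds of 0.38 in cluster 4 and -0.47 in cluster 1 were under the size threshold. In clusters 6, 7 and 8 the gene rested on about 9, 16 and 12 counts, with levels of 0.0302, 0.0616 and 0.0561.

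In cluster 9 Slc30a1 was called lower on about 2 counts in 112 cells. Its level was 0.0103 (0.00155 to 0.0461), against 0.0418 in the other cells, and the interval held the level of the other cells. In cluster 10 it was at 0.0264 on about 1 count. Neighbours in the order of Slc30a1 levels overlapped throughout.

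The other zinc transporters were read in the same way. Besides Slc30a1, 17 genes of the ZnT and ZIP families were measured, of which 11 had a level at or above the median gene. In clusters 0 to 4 none of the 17 was called. In cluster 3, 0.703% of all genes were called higher and 1.9% lower, and in cluster 2, 3.02% higher and 3.49% lower, so that 0 calls among 17 genes is near the background. The ZnT family mostly moves zinc out of the cytosol. Its list of 6 genes had median folds between -0.12 and 0.08 in clusters 0 to 5 in the authors' deposited tables. The ZIP list of 12 genes, which bring zinc into the cytosol, had medians between -0.09 and 0.04 by the authors' deposited tables. In cluster 3 the medians were 0.03 and 0.04 for ZnT and ZIP genes in the authors' deposited table, and the median of all genes was 0.01. In cluster 2 they were -0.05 and 0.01, beside 0.02 for all genes, in the authors' deposited table.

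Single zinc transporters were called in clusters 5, 6, 7, 9 and 10. Slc30a5, whose product ZnT5 loads zinc into the secretory pathway, was lower in cluster 6 at -0.69, and the ZIP gene Slc39a10 was lower there at -0.86 in the authors' deposited table. In that cluster 26.2% of all genes were called lower, and the median fold of all genes was -0.32 in the authors' deposited table. Slc39a7, whose product releases zinc from the endoplasmic reticulum, was higher in cluster 9 at 0.60 in the authors' deposited table, where 1.2% of genes were called higher. Slc39a2 was lower in cluster 5 at -2.18 in the authors' deposited table (4.87% of genes called lower), from a mean level of 0.00256. The other 5 calls of ZIP genes were of Slc39a2 or Slc39a4 with no count in a cluster. In cluster 3 Slc39a2 had the largest transporter fold, 0.89 in the authors' deposited table, and was not called; it is named here after its values were seen.

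**Figure D3:**
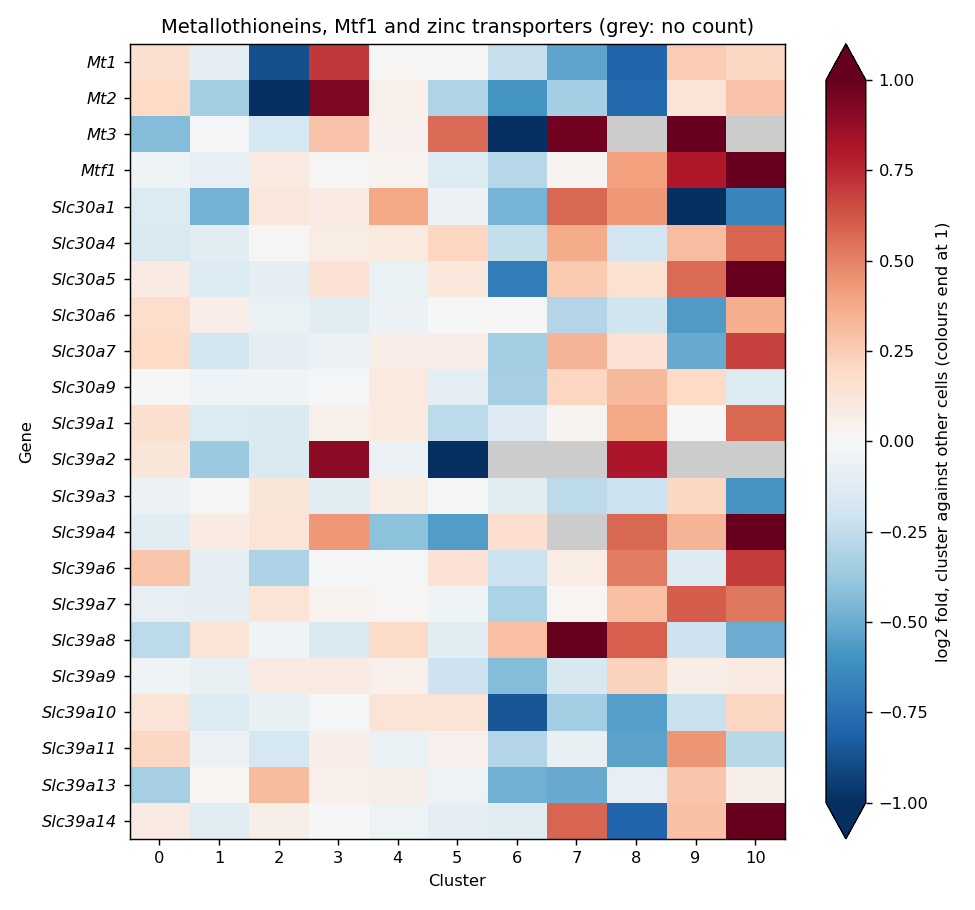
Deposited log2 fold (colour) of metallothionein genes, Mtf1 and zinc transporters (y axis) in clusters 0 to 10 (x axis), red for higher and blue for lower than in the other cells, with grey for no count and colours that end at 1. Mt1 and Mt2 are red in cluster 3 (0.71 and 0.93) and blue in cluster 2 (-0.88 and -1.05), where none of the 17 other transporters was called.

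Besides the members, 11 genes reported as MTF1 targets were read, of which Slc39a10 was also among the 17 transporters. None of the 11 was called in cluster 3, with a median fold of -0.02 in the authors' deposited table, beside 0.01 for all genes. With 0.703% of genes called higher and 1.9% lower there, 0 of 11 is near the background. In cluster 2 only Ndrg1, a stress-response gene, was called, lower at -0.88 in the authors' deposited table, where 3.49% of genes were called lower. Gclm, the modifier subunit of the glutathione-synthesising ligase, had folds of -0.44 (cluster 2) and -0.15 (cluster 3) by the authors' deposited tables and was not called. It was lower in cluster 7 at -0.55, as was the selenoprotein gene Selenow at -0.996, in the authors' deposited table, where 24.3% of genes were called lower. In cluster 6 Txnrd1 (-0.53), the iron exporter gene Slc40a1 (-1.96) and Slc39a10 (-0.86) were lower in the authors' deposited table, where 26.2% of genes were called lower. In cluster 9 Fkbp5 was lower at -0.74 in the authors' deposited table, where 19.9% of genes were called lower. The Pgf gene had no count in clusters 9 and 10. None of the 11 was called higher in any cluster.

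The third metallothionein gene of the tables, Mt3, best known from brain, had a mean level of 0.00911. It rested on 38 to 55 estimated counts in each of clusters 0 to 4. It was at 0.0107 (0.00809 to 0.0141) in cluster 3 and 0.00825 (0.00593 to 0.0113) in cluster 2, and these intervals overlapped. Mt3 was called lower in cluster 6 on about 1 count and in clusters 8 and 10 with no count. In cluster 10, 27.6% of all genes were called lower. Mt4 was not analysed here.

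The authors' deposited pathway tables held 9 pathways named for metallothioneins, zinc, copper or metal ions. The fold of the Reactome pathway on metal binding by metallothioneins equalled that of Mt3 in 11 of 11 clusters, to within 0.001 on the log2 scale, with no count of Mt3 in clusters 8 and 10. No pathway of 2922 matched Mt1 or Mt2 in this way. In the authors' deposited tables the pathway was at 0.28 in cluster 3, where Mt1 was at 0.71. Its fold of -0.17 in cluster 2 stood beside -0.88 for Mt1 by the authors' deposited tables. In cluster 9 the pathway reached 2.09, on about 6 counts of Mt3, where Mt1 was at 0.25 by the authors' deposited tables. No other pathway matched Mt3 either. By the authors' deposited tables the other 8 metal pathways lay between -0.02 and 0.03 in cluster 3 and between -0.09 and 0.04 in cluster 2. In cluster 8, where Mt1 and Mt2 were at -0.79 and -0.78, these 8 pathways lay between 0.05 and 0.41 by the authors' deposited tables.

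**Figure D4:**
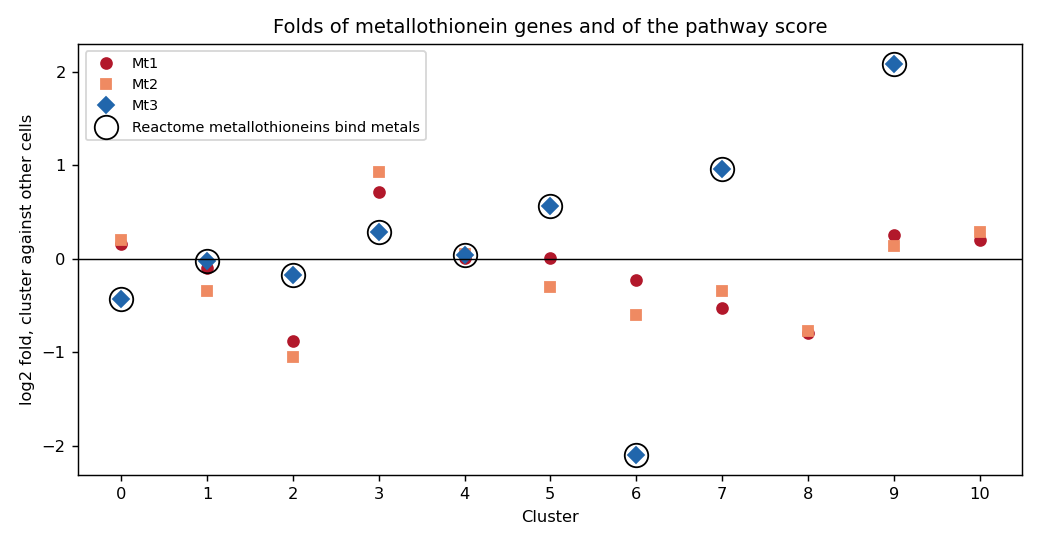
Deposited log2 fold (y axis) of Mt1, Mt2 and Mt3 (filled symbols) and of the Reactome metallothionein pathway (open circles) in clusters 0 to 10 (x axis); a value with no count is left out. The open circles sit on Mt3 in every cluster shown, as at 2.09 in cluster 9, and away from Mt1 and Mt2 in cluster 2 (-0.88 and -1.05).

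Genes were ranked by the Pearson correlation, over clusters 0 to 9, of their folds with the mean of the Mt1 and Mt2 folds. It was computed for 8532 genes at or above the median level with a count in each of these clusters, whose median correlation was 0.03. Genes named Gm plus digits or with a name ending in Rik were then left out of the ranking. The most alike was Gstm2, a glutathione S-transferase gene, at 0.92, followed by the ectonucleotidase family gene Enpp5 at 0.90. Gstm2 was at 0.34 in cluster 3, under the threshold, and was called lower in cluster 2, with a fold of -0.83 by the authors' deposited tables. Enpp5 was at 0.36 and -0.34 there, under the threshold in both clusters in the authors' deposited tables. Next came the serine synthesis gene Psat1 and the calcium sensor gene Rcvrn, both at 0.85, the deoxycytidylate deaminase gene Dctd at 0.84, and Oxr1, Wdr46, Rell2 and Dnph1 at 0.83, with the RNA methyltransferase gene Nsun2 at 0.81. Rcvrn was called higher in cluster 0, at 1.11, and lower in clusters 2 and 8, at -1.53 and -1.23, in the authors' deposited tables. Among the most opposed were Ttll7 (-0.77), Dhrs7 (-0.76), Fbrs (-0.75) and Ankrd33b (-0.73). These correlations carry no p. Enpp5 alone stayed among the 10 most alike in all 5 other ways of ranking.

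Marker lists of other cells also differed between the clusters at the ends of the metallothionein order. The 5 endothelial markers summed to 2.34 in cluster 3, against 1.04 to 2.07 in the other clusters. They summed to 1.80 in cluster 2 and 1.16 in cluster 8. In cluster 3, 1 of the 5 was called higher, where 0.703% of all genes were. The 6 megakaryocyte markers summed to 1.22 in cluster 3, 0.883 in cluster 2 and 1.11 in cluster 8. Of these 6, 3 were called lower in cluster 2, the cluster with the lowest sum, where 3.49% of all genes were called lower.

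The 10 long-term HSC markers summed to 17.7 in cluster 3, 21.0 in cluster 2 and 14.9 in cluster 8. Among them, 3 were called higher in cluster 2, where 3.02% of all genes were. In cluster 8, 5 were called lower, where 19.5% of all genes were. The 7 erythroid markers summed to 9.72 in cluster 3, 9.84 in cluster 2 and 12.9 in cluster 8. Car2, at 7.27 over all cells, was the largest part of this list. Of the 7, 3 were called lower in cluster 3, 2 in cluster 2 and 3 in cluster 8, where 1.9%, 3.49% and 19.5% of all genes were. In cluster 8, 1 was called higher, where 2.37% of all genes were. Some erythroid markers had no count at all: 2 each for clusters 3 and 8, and 1 for cluster 2. The lower calls of this list can include such genes, so they are not read as a lower erythroid level. Neutrophil, macrophage, B cell, T cell and mesenchymal lists summed to at most 0.409 in each of these 3 clusters. The part of these differences in the metallothionein levels was not tested.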

How the data were processed

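RNA of sorted HSCs was profiled by droplet sequencing in 6 libraries of 1 mouse each. The material was 22 deposited tables on 11 clusters of the pooled cells, 1 of genes and 1 of pathways for each cluster. Per the submitters' processing notes, Scanpy and the mm10 build were used, with the aligner, cell filters, clustering, test and doublets not given in the sources used here.

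Per the file headers and values, the authors' gene tables hold a log2 mean level, in counts per 10000, and a log2 fold change. They also hold a deposited p-value over cells with an adjusted p-value; since it treats cells as replicates, it served only as a filter on noise. The pathway tables hold the authors' score, a signed statistic over cells, with a log2 fold; only the fold is printed. Folds under -10 were read as no count.

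Cluster sizes were inferred from deposited p-values of 19 genes seen in 1 cell. A cluster's depth was set so that Poisson sampling of the mean profile would miss as many genes as its table missed. Levels were solved from mean, fold and size, and levels summed over clusters exceeded the mean by 1.30% for Mt1 and 0.739% for Mt2. Python 3.11.15, pandas 2.3.3 and scipy 1.17.1 were used, and the steps were tested on simulated data. Intervals are exact 95% Poisson or Wilson intervals of the estimated counts.

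The members, lists and markers were chosen with earlier results of these data known. Named were the members, then called genes of each list with the largest folds (at most 4 per list and cluster and 8 per list), then the 10 most and 5 least alike genes, of which 1 is not reported here. Alternatives changed the fold threshold, p filter, centring, level filter and likeness measure. Promoter windows were RefSeq's, and all 4 members matched.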

Additional observations from a re-analysis of the deposited data

How the results depend on the processing

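With the log2 fold threshold at 1 in place of 0.5, 0 of the 44 pairs of a member and a cluster were called higher and 2 lower, against 2 and 7. With no p filter 5 were called higher and 8 lower. The share of all genes called under these settings was not worked out, so these counts have no background beside them. Taking the median of all genes off the folds ended the calls of Mt1 in cluster 7 (-0.36) and Mt2 in cluster 6 (-0.28) and no other call. Under it Mt1 and Mtf1 in cluster 6, not called, turned to 0.08 and 0.03. With the median of genes at or above the median level, the same pairs were at -0.42 and -0.34, and of pairs not called Mt1 in cluster 6 turned to 0.03, Mt1 in cluster 10 to -0.10 and Mt2 in cluster 10 to -0.03. Requiring 10 estimated counts, chosen after seeing the data, ended the call of Slc30a1 in cluster 9. Over the lists, 14 calls were higher and 51 lower. At a threshold of 0.25 they were 41 and 81, and among genes at or above the median level 9 and 27. These totals over clusters also have no share of all genes beside them. Of the 10 genes most like the metallothioneins, 3 were shared under Spearman correlation, 1 with clusters 0 to 5, 6 with Mt1 alone and 9 with Mt2 alone. Above the 75th percentile of level 4 were shared, a number set by the filter, which removed the others. No paired analysis was possible because each group had 1 library and the tables pool them, and no library could be left out. Values on fewer than 10 counts are limited by depth.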

Other observations

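Other stress and metal lists were read in the clusters where the metallothioneins were highest and lowest. In cluster 3, where 0.703% of all genes were called higher and 1.9% lower, none of the 9 copper, 10 iron, 13 glutathione and NRF2 or 9 heat shock genes measured was called. Of 12 glucocorticoid-induced genes, only the phosphatase gene Dusp1 was called there, lower at -0.52 in the authors' deposited table. These counts are near the background. In cluster 2, the transcription factor gene Klf9 was called higher at 0.53, and the chaperone genes Hspa1b and Hspb1 at 0.58 each, in the authors' deposited table, where 3.02% of genes were called higher. No copper, iron or NRF2 gene was called in cluster 2. In cluster 8, Hspb1 went the other way and was called lower at -1.52 in the authors' deposited table. Hsph1 of the heat shock list (-0.61) and the glucocorticoid-induced gene Cebpd (-0.87) were also called lower there, where 19.5% of genes were. Ireb2 of the iron list was called higher in cluster 8 at 0.56 in the authors' deposited table, where 2.37% of genes were called higher.

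Other calls in these lists fell in other clusters. In cluster 9, 4 of the 12 glucocorticoid-induced genes were called higher, with Dusp1 at 2.70, the kinase gene Sgk1 at 2.00, Klf9 at 0.86 and Cebpd at 0.83 in the authors' deposited table, where 1.2% of all genes were called higher. The median of that list was 0.50, against -0.07 for all genes, in the authors' deposited table. The co-chaperone gene Fkbp5 was called lower there at -0.74 in the authors' deposited table. The heat shock gene Dnajb1 was called higher in cluster 9 at 1.77 in the authors' deposited table, while Mt1 and Mt2 were at 0.25 and 0.13. In cluster 0, Hspb1 was called lower at -1.33 in the authors' deposited table, where 6.62% of genes were called lower. In cluster 7 the ferritin genes Ftl1 and Fth1 were called lower at -0.75 and -0.68 and the copper chaperone gene Atox1 at -0.75 in the authors' deposited table. Ireb2, also of the iron list, was called higher in cluster 7 at 0.67 in the authors' deposited table, where 1.84% of genes were called higher. The selenoenzyme gene Gpx1 was called lower there at -0.80 in the authors' deposited table. In cluster 7, 24.3% of all genes were called lower, and 15.3% of those at or above the median level.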
